A study of Homo sapiens with 24 samples.

Results

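The FOXO factors and a set of their target genes were followed as 9 of the 21386 genes listed in each count table. The set was defined by gene name: FOXO1, FOXO3 and FOXO4, and the target genes SESN3, CCNG2, TXNIP, BCL6, KLF6 and PDK4. Total RNA was sequenced from A375, a human melanoma line, and A549, a human lung adenocarcinoma line, in 24 libraries. Each line gave 4 groups of 3 libraries: cells carrying a doxycycline-inducible shRNA against MCM7 (shMCM7) with Dox, the same cells without Dox, parental cells with Dox and parental cells without Dox. Dox was given at 1 µg/ml for 72 hours, and every group, controls included, was held in G1 by a double thymidine block, so no group was cycling freely. The parental cells did not receive the shRNA vector, so a difference between shMCM7 and parental cells cannot be told apart from a difference made by transduction. MCM7 is a subunit of the helicase that is loaded at replication origins.

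FOXO proteins are forkhead transcription factors that act at the end of the PI3K-AKT pathway. When growth factors activate PI3K, AKT phosphorylates FOXO proteins, which bind 14-3-3 proteins and leave the nucleus. When AKT activity falls, FOXO proteins return to the nucleus and switch on genes for cell cycle arrest, stress resistance, autophagy and a change of fuel use. Because this control acts on the protein, the mRNA of a FOXO gene does not report where its protein is, and protein was not measured in these libraries.

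The shRNA is defined by a target of 21 bases, shown because it sets what the groups differ in:
shMCM7 target: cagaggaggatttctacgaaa
Among 206694 GENCODE 29 transcripts this sequence matched 5, and all belonged to 1 gene, MCM7. The match spans a junction between adjacent coding exons on the minus strand of chromosome 7, between positions 100097728 and 100097836 (GRCh38). No member of the FOXO set held the full target.

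FOXO factors bind a forkhead motif, and the promoter windows of the members are shown where they held it. A first search of the 250 bases before the start, in 1 window a gene, on both strands, for the letters GTAAACA or else ATAAACA or else CAAAACA, found a match in 1 of the 9 members, TXNIP, and in 10.5% of 27305 windows. A wider search was chosen after the result of the first was known. It took all 300 bases of every RefSeq window (GRCh38.p14) and looked on both strands for GTAAACA and for ATAAACA, and also for GTAAATA and for ATAAATA. It found a match in 3 of the 9 members, in 3 of their 14 windows, and in 13.6% of all 35116 windows. The 3 matches, in capitals, each read 5′ to 3′ in the direction of the gene:
TXNIP, chr1:145996685-145996714, minus strand, 124 bases before the start: tcgggctcctgGTAAACAaggaccgggcag
FOXO3, chr6:108560672-108560701, plus strand, 234 bases before the start: ccgagcgaaacATAAACAaacgcacgcaca
FOXO4, chrX:71095863-71095892, plus strand, 24 bases after the start: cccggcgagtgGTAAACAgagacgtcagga
These are matches of letters and not measured binding sites, and the absence of a match says only that the letters are not in the window.

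MCM7 itself, the targeted gene, checked the labels. In A375, MCM7 stood at 76.8, 76.4 and 77.2 CPM (counts scaled to a common library total with TMM factors within the line) in the shMCM7 Dox libraries and between 342 and 370 CPM in the 6 parental libraries. The shMCM7 noDox libraries held 131, 353 and 359 CPM, so replicate 1 of the uninduced cells stood apart from its group. Each member's shMCM7 Dox against noDox value is therefore given with and without it, as are the other comparisons that include it where the call or the value depends on it. In A549, MCM7 went against the labels. It was low in the library labelled shMCM7 Dox replicate 3 (95.3 CPM), in the library labelled shMCM7 noDox replicate 2 (99.8 CPM) and in the library labelled parental noDox replicate 2 (88.6 CPM), and lay between 299 and 339 CPM in the other 9. Tests in A549 therefore compare labels, not MCM7 levels. Library totals ran from 146656792 to 283721575 counts in A375 and from 17911338 to 23452823 in A549. Of 8 melanoma markers, SOX10 stood at 501 to 677 CPM in A375 and was at 0 in A549, while MLANA and TYR were at or near 0 in A375 as well. MITF, another of the 8, ranged from 26.6 to 45.1 CPM over the A375 libraries and from 35.7 to 52 CPM over those of A549, so it did not separate the lines. Of 8 lung adenocarcinoma markers, KRT8 reached 1.83e+03 to 2.76e+03 CPM in A549, and NKX2-1 and SFTPB were at or near 0 there. Nothing says that the libraries of a group came from separate cultures beyond their description as biological replicates, and p-values measure the spread between these libraries.

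All 9 members passed the filter on low counts in both lines. Per length of annotated exon, their order differed between the lines. That length joins all exons annotated for a gene, so the order depends in part on the annotation. In A375, TXNIP had the highest median level (6.42 RPKM, which is CPM per kilobase of exon, over 12 libraries), followed by FOXO4 (4.31) and KLF6 (4.18), whose ranges overlapped. SESN3 was the lowest (0.763 RPKM, range 0.447 to 1.07). In A549, PDK4 was the highest (16.4 RPKM, range 11.4 to 28.8), followed by KLF6 (10.3, range 8.22 to 12.3), and TXNIP was the lowest (0.567, range 0.213 to 0.833). FOXO3 had close medians in both lines, 1.62 RPKM in A375 and 1.71 RPKM in A549. FOXO6, the remaining FOXO gene with counts, did not pass 0.453 RPKM in any library. Depth differed between the lines as well. The smallest count of a member was 1083 in A375 (SESN3) and 14 in A549 (TXNIP), so A549 values of TXNIP and FOXO4 (24 to 63 counts) carry the largest counting error.

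The first comparison asked whether FOXO mRNAs and their targets moved with MCM7 knock-down in A375. In shMCM7 cells, Dox was set against noDox with edgeR's quasi-likelihood test, and calls needed a 1.5-fold difference or more together with p under 0.01 and a Benjamini-Hochberg FDR under 0.05. None of the 9 members was called up and none was called down, where 5.58% of the 16087 genes tested were called up and 6.45% were called down. At an unadjusted p under 0.05, 4 of the 9 passed, beside 51.5% of all genes tested, and DESeq2 called 0 members. The members' median log2 fold change was -0.039, and that of all genes tested was 0.0045. The 3 members furthest from 0, TXNIP, CCNG2 and PDK4, all had negative values. In these bulk libraries, fewer cells that express a gene cannot be told apart from less of its RNA in each cell.

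Among the factors, FOXO1 stood at 9.65, 10.9 and 10.1 CPM with Dox and at 11.4, 10.3 and 9.70 CPM without it. The groups overlapped, and the log2 fold change was -0.039 ± 0.086 (SE, n = 3 libraries a group), with an edgeR FDR of 0.74, or 0.028 without shMCM7 noDox replicate 1. FOXO3 stood at 11.3, 12.6 and 11.6 CPM with Dox and at 11.3, 11.6 and 12.9 CPM without, and differed by -0.0078 ± 0.080 on the log2 scale (edgeR FDR 0.94), or by -0.045 without that replicate. FOXO3 shares sequence with a near-identical copy, FOXO3B, for which no counts were analysed here, so its counts are uncertain to that extent. FOXO4 stood at 15.4, 16.6 and 17.9 CPM with Dox and at 14.2, 14.3 and 14.9 CPM without. Each FOXO4 value with Dox lay above each value without, but the difference of 0.20 ± 0.072 on the log2 scale (edgeR FDR 0.049) was 1.15-fold and below the minimum fold. Without shMCM7 noDox replicate 1 it was 0.19 with an edgeR FDR of 0.098.

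CCNG2 encodes cyclin G2, an unconventional cyclin linked to cell cycle arrest. It stood at 8.91, 9.34 and 9.37 CPM in shMCM7 Dox libraries and at 11.2, 13.2 and 13.8 CPM in shMCM7 noDox libraries. The groups did not overlap, and the log2 fold change was -0.47 ± 0.088 with an edgeR FDR of 0.0023. The difference was 1.39-fold, under the minimum of 1.5, so CCNG2 was not called. Without shMCM7 noDox replicate 1 the log2 fold change of CCNG2 was -0.56, which is again under that minimum.

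PDK4 encodes a kinase that inactivates pyruvate dehydrogenase and so keeps pyruvate from oxidation. It stood at 7.16, 8.10 and 8.88 CPM with Dox and at 7.90, 12.2 and 12.5 CPM without. The uninduced library with low MCM7, replicate 1, lay inside the range of the Dox libraries, and the other 2 uninduced libraries lay above it. Over all 6 libraries the log2 fold change of PDK4 was -0.44 ± 0.16 with an edgeR FDR of 0.054, and PDK4 was not called. Without replicate 1 it was -0.62 with an edgeR FDR of 0.0015, and PDK4 was the 1 member called down. In the noDox parental cells, too, replicate 1 was the lowest for PDK4, at 10.8 CPM against 15.5 and 16.4 CPM, with MCM7 there at 352 CPM.

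TXNIP binds thioredoxin and limits glucose uptake. It stood at 20.3, 26.0 and 12.7 CPM in shMCM7 Dox libraries and at 37.2, 24.4 and 21.2 CPM in shMCM7 noDox libraries. In parental cells it stood at 26.3, 22.9 and 18.6 CPM with Dox and at 34.3, 23.7 and 15.4 CPM without. The library numbered 3 was the lowest of its group in all 4 groups, and the library numbered 1 was the highest in 3 of them. The shMCM7 difference of -0.49 ± 0.26 on the log2 scale had an edgeR FDR of 0.15, and without shMCM7 noDox replicate 1 it was -0.22. In a fit blocked on the replicate number it was -0.51 (edgeR FDR 0.012), under the minimum fold.

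The remaining targets differed less between shMCM7 cells with and without Dox. SESN3, one of the sestrins that restrain mTORC1 and oxidative stress, differed by -0.24 ± 0.10 on the log2 scale (edgeR FDR 0.085), or by -0.28 without shMCM7 noDox replicate 1. BCL6, a transcriptional repressor, differed by 0.090 ± 0.079 (edgeR FDR 0.38), or by 0.14 without it. KLF6, a zinc finger transcription factor, stood at 27.6, 28.1 and 28.6 CPM with Dox and at 23.4, 24.9 and 27.5 CPM without. Its groups stood next to each other without overlap, with a difference of 0.15 ± 0.069 on the log2 scale (edgeR FDR 0.10), which was 0.099 without that replicate.

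**Figure D1:**
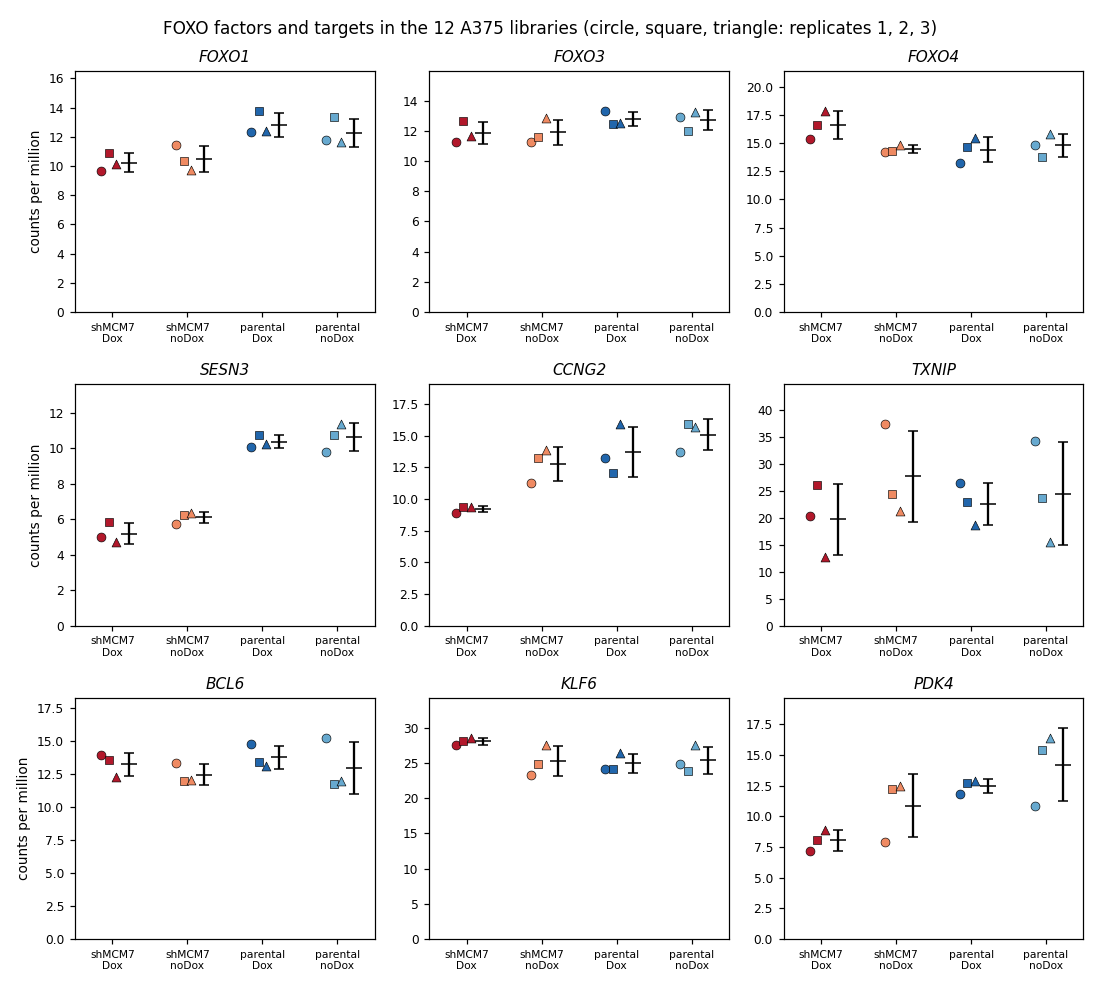
Level of each of the 9 genes (vertical axis, CPM from 0) in the 12 A375 libraries, by group, with replicates 1, 2 and 3 as circle, square and triangle and the bar beside each group giving mean ± SD (n = 3). SESN3 sits between 4.72 and 6.36 CPM in the 6 shMCM7 libraries and between 9.77 and 11.3 CPM in the 6 parental libraries, and CCNG2 is at or below 9.37 CPM in the shMCM7 Dox libraries and at or above 11.2 CPM elsewhere.

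The parental cells gave the background of Dox without the shRNA. None of the 9 members was called by edgeR in either direction, where 0% of 15993 genes were called, 0 of 9 had an unadjusted p under 0.05, and DESeq2 called 0 of 9. Over all genes, 1121 had an unadjusted p under 0.05 and DESeq2 called 3. The member furthest from 0 was PDK4, at -0.19 ± 0.13 on the log2 scale (edgeR FDR 0.80), and the members' median was -0.037.

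The interaction asked whether the Dox difference itself differed between shMCM7 and parental A375 cells, with all 12 libraries in 1 fit. None of the 9 members was called, where 4.37% of 16334 genes were called up and 6.17% were called down. At an unadjusted p under 0.05, 2 of 9 passed, beside 41.5% of all genes tested, and DESeq2 called 0 members. These 2 were CCNG2, with an interaction of -0.34 ± 0.14 on the log2 scale (edgeR FDR 0.092), and FOXO4, with 0.23 ± 0.11 (edgeR FDR 0.11). PDK4 had an interaction of -0.25 ± 0.24 on the log2 scale (edgeR FDR 0.46), and -0.43 without shMCM7 noDox replicate 1 (edgeR FDR 0.11). Without that replicate the interaction of CCNG2 was -0.41 (edgeR FDR 0.038), under the minimum fold, and that of TXNIP moved from -0.38 to -0.092.

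The comparison of uninduced shMCM7 with uninduced parental A375 cells asked what differed between cells that received no Dox. SESN3 was lower in the shMCM7 cells. It was the 1 member of 9 called down, and none was called up, where 0.478% of 16093 genes were called down and 1.17% up. SESN3 stood at 5.74, 6.22 and 6.36 CPM in shMCM7 noDox libraries and at 9.77, 10.8 and 11.3 CPM in parental noDox libraries. Every shMCM7 library lay below every parental one, and the log2 fold change was -0.80 ± 0.080 with an edgeR FDR of 0.00054, a 1.74-fold lower level. Without shMCM7 noDox replicate 1 it was -0.76 with an edgeR FDR of 0.00074, and replicates 2 and 3 had MCM7 at 353 and 359 CPM, beside 342 to 352 CPM in the parental noDox libraries. Same-numbered libraries deviated together in this comparison. In a fit blocked on the replicate number, the count of all genes called moved from 266 to 484, and the members called stayed at 1. PDK4 stood at 7.90, 12.2 and 12.5 CPM in shMCM7 noDox libraries and at 10.8, 15.5 and 16.4 CPM in parental noDox libraries, and was lower in each same-numbered pair. Its log2 fold change was -0.39 ± 0.19 (edgeR FDR 0.34), with the block -0.40 (edgeR FDR 8.2e-05) and without shMCM7 noDox replicate 1 -0.20, all under the minimum fold. With the block, CCNG2 differed by -0.24 (edgeR FDR 0.0043), FOXO1 by -0.23 (edgeR FDR 0.023) and TXNIP by 0.20 (edgeR FDR 0.041), also under that minimum. The TXNIP value was 0.17 without the block and -0.10 without shMCM7 noDox replicate 1.

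With Dox in both, shMCM7 A375 cells held less SESN3 and PDK4 than parental cells. These were the 2 of 9 members called down, none was called up, and 8.39% of 16086 genes were called down and 7.64% up. SESN3 stood at 4.98, 5.87 and 4.72 CPM in shMCM7 Dox libraries and at 10.1, 10.8 and 10.3 CPM in parental Dox libraries. The groups were far apart, and the log2 fold change of SESN3 was -1.0 ± 0.093 with an edgeR FDR of 4.2e-05. PDK4 stood at 7.16, 8.10 and 8.88 CPM in shMCM7 Dox libraries and at 11.8, 12.7 and 12.9 CPM in parental Dox libraries. The PDK4 groups did not overlap, with a log2 fold change of -0.64 ± 0.090 and an edgeR FDR of 0.00046, and without shMCM7 Dox replicate 1 it was -0.56, under the minimum fold. This comparison does not include the library that stands apart.

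CCNG2 lay at the edge of the call in the same comparison. It stood at 8.91, 9.34 and 9.37 CPM in shMCM7 Dox libraries and at 13.2, 12.1 and 15.9 CPM in parental Dox libraries. Without overlap of the groups, the log2 fold change of CCNG2 was -0.58 ± 0.099 (edgeR FDR 0.0014), a 1.49-fold difference just under the minimum, and without shMCM7 Dox replicate 3, parental Dox replicate 1 or parental Dox replicate 2 it passed. FOXO1 stood at 9.65, 10.9 and 10.1 CPM in shMCM7 Dox libraries and at 12.3, 13.8 and 12.4 CPM in parental Dox libraries. All FOXO1 values of the shMCM7 cells lay below those of the parental cells, by -0.33 ± 0.078 on the log2 scale (edgeR FDR 0.0072), or 1.25-fold. The other 5 members ranged from -0.20 (TXNIP) to 0.20 (FOXO4) on the log2 scale.

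**Figure D2:**
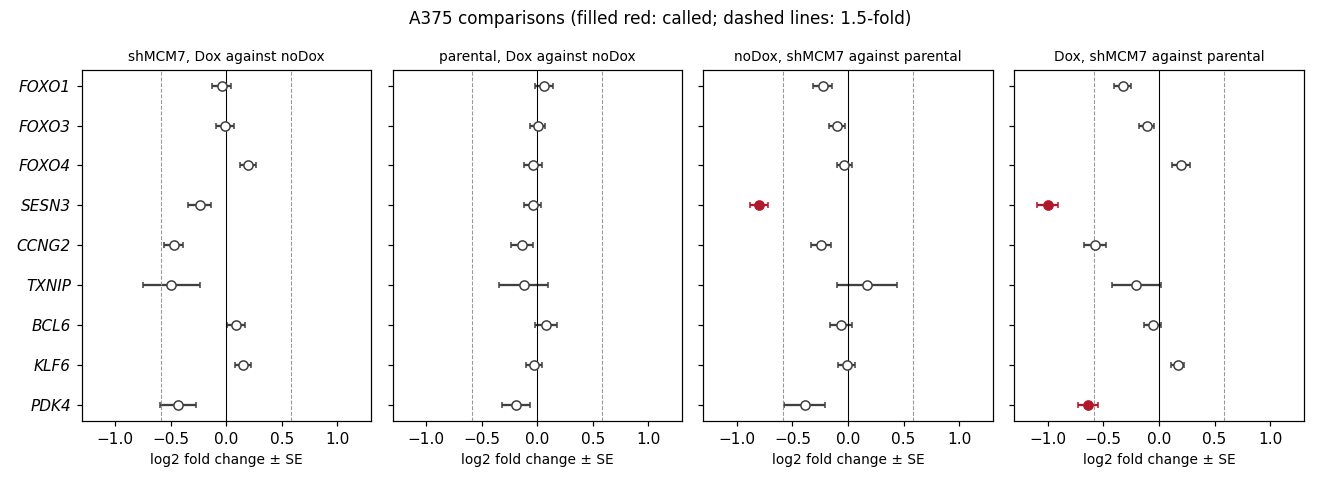
Log2 fold change ± SE (horizontal axis) of each of the 9 genes in the 4 A375 comparisons, 3 libraries a group, with called genes filled in red and dashed lines at 1.5-fold. SESN3 is called in both comparisons of shMCM7 with parental cells (-0.80 and -1.0), PDK4 is called in the comparison with Dox in both (-0.64), and no gene is called in either comparison of Dox with noDox.

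Across the 12 A375 libraries, the genes whose log2 CPM was most like that of a member were ranked by Pearson's r among 16325 genes, as a description over libraries that share groups. For SESN3 they were SLC4A4 (r = 0.989), AC011504.1 (0.989) and PDE3B (0.986). For CCNG2 they were ZNF266 (0.980), SAP30L (0.975) and ZNF214 (0.972), and for PDK4 they were TNFRSF19 (0.969), MOXD1 (0.966) and SERPINB1 (0.965). Among pairs of members, the highest r was 0.90 (CCNG2 and PDK4), followed by 0.849 (FOXO4 and KLF6) and 0.839 (FOXO1 and SESN3). The lowest was -0.705 (TXNIP and KLF6), followed by -0.648 (FOXO1 and KLF6) and -0.630 (FOXO4 and TXNIP). SESN3 and CCNG2 had r = 0.801, and FOXO1 and FOXO4 had r = -0.452. FOXO3 varied least of the 9, with an SD of 0.080 on the log2 scale, and SESN3 the most, with 0.43.

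A longer list of 40 FOXO targets from textbook knowledge, of which 37 were tested in A375, moved in both directions when shMCM7 cells with Dox were set against those without. IRS2, GABARAPL1, BNIP3L, KLF4 and CITED2 rose and CDKN1A fell, 5 and 1 of 37 beside 5.58% and 6.45% of all genes tested, and the median log2 fold change of the 37 was 0.050, beside 0.0045 over all genes tested. GABARAPL1, an autophagosome protein of the ATG8 family, stood at 112, 122 and 116 CPM with Dox and at 62.8, 61.8 and 62.3 CPM without. BNIP3L, a mitophagy receptor, stood at 60.4, 67.4 and 67.6 CPM with Dox and at 38.4, 35.0 and 35.3 CPM without. Both were well separated, with log2 fold changes of 0.91 ± 0.051 for GABARAPL1 (edgeR FDR 3.0e-05) and 0.84 ± 0.065 for BNIP3L (edgeR FDR 4.6e-05).

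IRS2, an adaptor that couples insulin and IGF receptors to PI3K, stood at 334, 232 and 210 CPM with Dox and at 174, 153 and 119 CPM without. Its log2 fold change was 0.79 ± 0.18 (edgeR FDR 0.0057), and without shMCM7 Dox replicate 1, the highest library, it was 0.57 and no longer called. KLF4, a zinc finger transcription factor, stood at 30.7, 19.9 and 20.3 CPM with Dox and at 18.2, 13.6 and 13.3 CPM without, with a log2 fold change of 0.65 ± 0.18 (edgeR FDR 0.015). The call of KLF4 was lost without shMCM7 Dox replicate 1, where the log2 fold change was 0.42, without shMCM7 noDox replicate 2 or 3, with DESeq2 and with glmTreat, a test against 1.5-fold itself. CITED2, a CBP/p300-binding transcriptional regulator, stood at 42.6, 38.7 and 41.9 CPM with Dox and at 23.4, 26.1 and 24.7 CPM without, with a log2 fold change of 0.73 ± 0.065 (edgeR FDR 6.8e-05). CITED2 was also higher in uninduced shMCM7 than in uninduced parental cells, by 0.68 ± 0.068 on the log2 scale (edgeR FDR 0.00053). In the interaction test CITED2 was not called, so its Dox difference was not shown to differ between shMCM7 and parental cells.

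CDKN1A encodes the CDK inhibitor p21 and is also a p53 target. It stood at 747, 727 and 737 CPM with Dox and at 1088, 1169 and 1184 CPM without. The groups did not overlap, and CDKN1A fell by 0.64 ± 0.055 on the log2 scale (edgeR FDR 6.4e-05). Without shMCM7 noDox replicate 1, all 6 of these targets were called again and SELENOP, a selenium transport protein, was called down as well, at -1.27 on the log2 scale (edgeR FDR 0.011), beside -1.01 with it (edgeR FDR 0.045). In the comparison with parental cells, both with Dox, 5 of the 37 targets were called up (IRS2, FBXO32, GABARAPL1, BNIP3L and CITED2) and 2 down (CDKN1A and SELENOP), beside 7.64% and 8.39% of all genes tested. The call of IRS2 there was lost without shMCM7 Dox replicate 1, where the log2 fold change was 0.47, and that of FBXO32 without shMCM7 Dox replicate 2 or parental Dox replicate 1. SELENOP rested on counts of 13 to 70 over the A375 libraries.

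Of 25 regulators that act on FOXO proteins, 1, SKP2, fell in shMCM7 cells with Dox against noDox and 0 were called up by edgeR or DESeq2, beside 6.45% and 5.58% of all genes tested. SKP2, a ubiquitin ligase subunit that targets FOXO1 and p27, stood at 64.7, 71.0 and 70.8 CPM with Dox and at 101, 112 and 117 CPM without, and fell by 0.68 ± 0.068 on the log2 scale (edgeR FDR 0.00011). Without shMCM7 noDox replicate 1, SIRT1, a deacetylase of FOXO proteins, was called down as well, at -0.60 on the log2 scale (edgeR FDR 0.00040), beside -0.54 with it. The median log2 fold change of the 25 regulators was -0.00093. The summed level of 15 G2/M genes moved with Dox too: it lay between 1165 and 1307 CPM in the shMCM7 Dox libraries and between 1594 and 1735 CPM in the other 9 A375 libraries, and its part in these results was not tested.

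**Figure D3:**
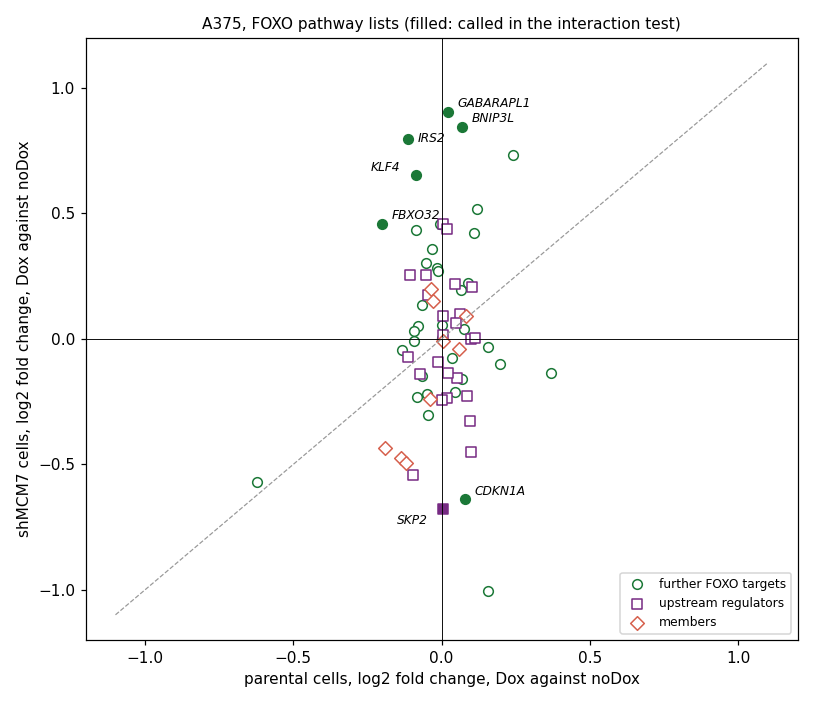
Log2 fold change of Dox against noDox in shMCM7 A375 cells (vertical axis) against that in parental A375 cells (horizontal axis) for the 9 members (diamonds), the 37 further targets tested (circles) and the 25 upstream regulators (squares), with genes called in the interaction test filled and named, and equality as a dashed line. The vertical spread runs from -1.01 to 0.91 for the further targets and from -0.49 to 0.20 for the members.

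In A549 the comparisons by label called none of the 9 members. For the libraries labelled shMCM7, Dox against noDox, edgeR called 0% of 13550 genes in either direction, DESeq2 called 0, and 61 genes, none of them a member, had an unadjusted p under 0.05. For the libraries labelled parental, edgeR called 0% of 13494 genes, DESeq2 called 9, none of them a member, and 1137 genes, 0 of them members, had an unadjusted p under 0.05. In each comparison a library with low MCM7 shared its label with libraries where MCM7 was not low, so these tests do not address MCM7 knock-down.

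Library by library, PDK4 in A549 stood at 66.2, 76.2 and 118 CPM in the libraries labelled shMCM7 Dox, with MCM7 at 299, 333 and 95.3 CPM. In the libraries labelled shMCM7 noDox, PDK4 stood at 69.6, 111 and 76.8 CPM, with MCM7 at 329, 99.8 and 309 CPM. In those labelled parental noDox it stood at 67.9, 130 and 79.3 CPM, with MCM7 at 314, 88.6 and 339 CPM. The libraries labelled parental Dox held PDK4 at 71.9, 51.5 and 60.8 CPM, with MCM7 between 324 and 330 CPM in all 3. The 3 highest PDK4 values of the 12 were thus in the 3 libraries with the lowest MCM7. No test was made of this order, since it would form groups from a measured value.

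FOXO3 in A549 stood at 13.3, 13.8 and 21.6 CPM in the libraries labelled shMCM7 Dox and at 13.5, 18.9 and 13.1 CPM in those labelled shMCM7 noDox. It stood at 12.8, 10.5 and 12.1 CPM in those labelled parental Dox and at 11.97, 20.4 and 12.6 CPM in those labelled parental noDox. Its 3 highest values fell in the same 3 libraries as those of PDK4. CCNG2 stood at 5.52, 6.03 and 6.83 CPM, at 5.01, 6.51 and 5.76 CPM, at 5.54, 4.58 and 4.66 CPM and at 4.83, 7.32 and 4.63 CPM in the same order of labels, again highest in these 3. The lowest of the 3, 6.51 CPM, lay close to 6.03 CPM in the library labelled shMCM7 Dox replicate 2. CCNG2 held 91 to 160 counts a library in A549, so counting error bears on this order.

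KLF6 in A549 was lowest in these libraries. It stood at 67.4, 60.5 and 55.0 CPM in those labelled shMCM7 Dox, at 61.2, 50.5 and 63.0 CPM in those labelled shMCM7 noDox, at 72.9, 63.6 and 66.9 CPM in those labelled parental Dox and at 75.5, 56.2 and 67.1 CPM in those labelled parental noDox. The values of FOXO1 (4.39 to 6.53 CPM), FOXO4 (1.32 to 2.69 CPM), SESN3 (7.71 to 15.6 CPM), TXNIP (0.771 to 3.02 CPM) and BCL6 (5.69 to 9.43 CPM) in the 3 libraries overlapped those in the other 9. How many of all genes order these libraries in the same way was not counted, so the order is not shown to be particular to the FOXO set. The summed level of the 15 G2/M genes was 1882, 2025 and 1987 CPM in the libraries labelled shMCM7 Dox replicate 3, shMCM7 noDox replicate 2 and parental noDox replicate 2, and at least 2109 CPM in the other 9. The summed level of 6 fibroblast markers was 65.8, 65.2 and 57.1 CPM in the same 3 libraries and 11.1 to 22.3 CPM in the other 9. COL1A1 made up nearly all of it, at 64.8, 64.3 and 56.3 CPM, while DCN was at 0 in all 12. The part of either sum in these values was not tested.

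**Figure D4:**
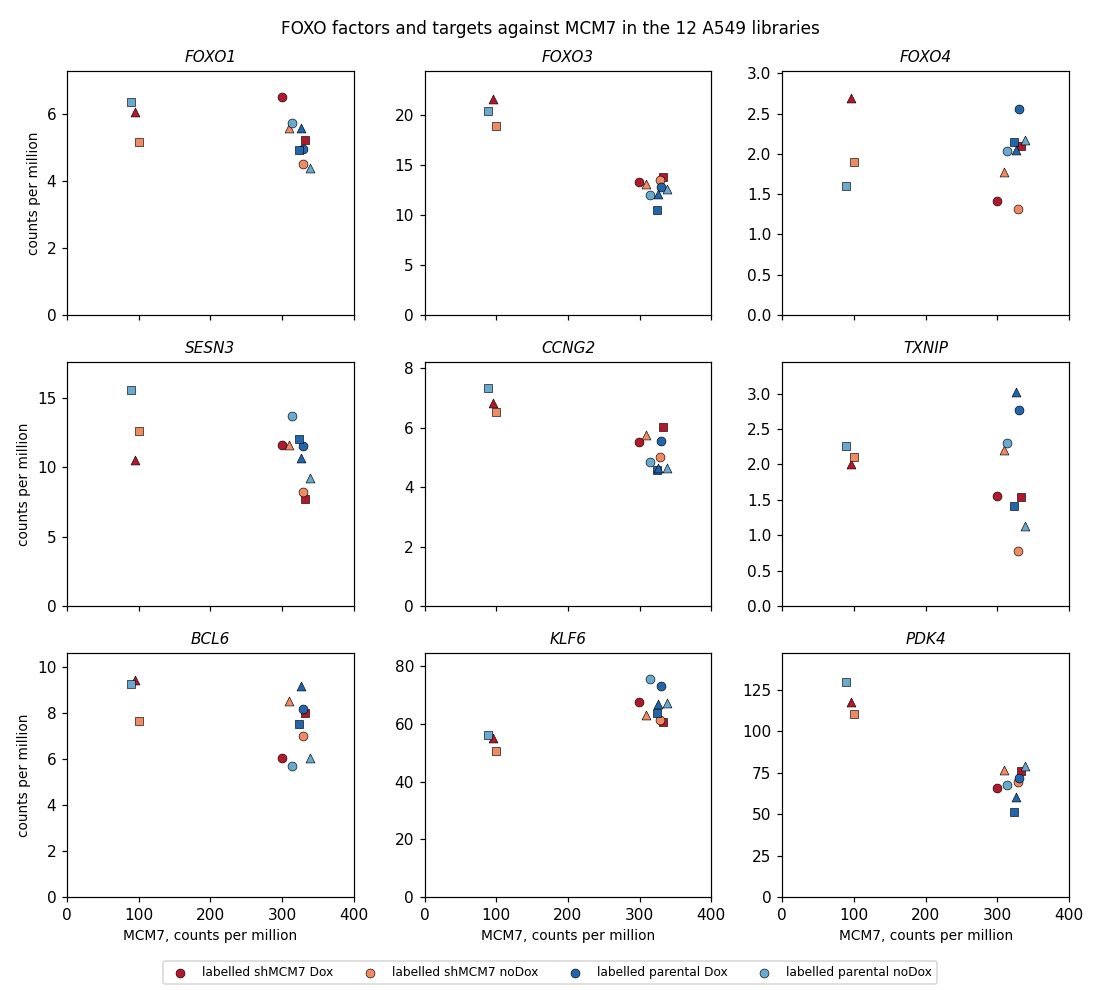
Level of each of the 9 genes (vertical axis, CPM from 0) against the level of MCM7 (horizontal axis, CPM) in the 12 A549 libraries, coloured by label, with replicates 1, 2 and 3 as circle, square and triangle. The 3 libraries with MCM7 between 88.6 and 99.8 CPM carry 3 different labels, and PDK4 is 111 to 130 CPM there and 51.5 to 79.3 CPM in the other 9.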

How the data were processed

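The authors deposited 1 table of raw read counts per gene for each of the 24 libraries, without normalization. The submitters' processing notes name bcl2fastq 2.19, Trimmomatic, STAR 2.7.1, featureCounts, edgeR and GRCh38.p10, and the annotation release, strand setting and treatment of multi-mapped reads are not given in the sources used here. Members with a neighbour on the other strand (FOXO1, FOXO3, SESN3, CCNG2 and BCL6) are uncertain to that extent. The same holds for the called targets IRS2, GABARAPL1, BNIP3L, CITED2, CDKN1A and SELENOP. FOXO1 also overlaps LINC00598 on its own strand. Names, positions and exon lengths came from GENCODE 29, which held 21349 of the 21386 identifiers.

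The members, gene lists, tests and alternatives were chosen with earlier results of these data known. All members were named, called or not, with listed genes that were called, and 2 genes of the regulator list are not reported here. Groups followed the labels. Counts were tested in R 4.3.3 with edgeR 4.0.16 (TMM, filterByExpr, quasi-likelihood test, prior count 0.125, Benjamini-Hochberg adjustment), with the compared libraries alone in each fit and all 12 A375 libraries for the interaction. SE is the absolute log2 fold change divided by the square root of F. The scripts were tested on simulated counts. Alternatives were DESeq2 1.42.0 and its size factors, no filter, at least 10 counts in every library, a replicate block, all 12 libraries of the line, glmTreat against 1.5-fold, each library left out, and levels by library totals.

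The labels share replicate numbers between groups. Deviations from group means correlated between same-numbered libraries in every pair for shMCM7 noDox against parental noDox in A375 (r = 0.318, 0.212 and 0.341), and in no other comparison did every pair exceed 0.1. In A375, r was 0.256, 0.088 and 0.235 for shMCM7 Dox against noDox and 0.217, 0.018 and 0.319 for parental Dox against noDox. It was -0.00038, -0.098 and 0.272 between shMCM7 and parental cells with Dox. Chi-square per degree of freedom was 1.95 to 108.4 over the 24 pairs of libraries within a group, and none were identical. The lowest values, 1.95, 3.05 and 3.48, were between A549 libraries labelled parental Dox, and the next lowest was 9.59. Pairs across groups were not compared. No intervals are given for counting error.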

Additional observations from a re-analysis of the deposited data

Results flagged for a closer look

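In A375, 7 listed genes had a Dox difference that itself differed between shMCM7 and parental cells (interaction term, edgeR's quasi-likelihood test over 12 libraries), and none of the 9 FOXO members was among them. These were 7 of 71 listed genes tested, beside 10.5% of all genes called in either direction. The pooled share was thus no higher than that of all genes, but the lists differed. Of the 37 further targets, 5 were called up and 1 down, and of the 25 regulators, 0 were called up and 1 down. Among all genes tested, 4.37% were called up and 6.17% down. Whether the targets differed from all genes in this was not tested. The interaction on the log2 scale was 0.91 ± 0.22 for IRS2 (edgeR FDR 0.0082), 0.88 ± 0.063 for GABARAPL1 (edgeR FDR 4.5e-06) and 0.77 ± 0.084 for BNIP3L (edgeR FDR 3.5e-05). FBXO32, a muscle-atrophy ubiquitin ligase subunit, was not called within shMCM7 cells, where its log2 fold change was 0.46 (edgeR FDR 0.0025). In parental cells, each FBXO32 value with Dox lay below each value without. The interaction was 0.66 ± 0.11 for FBXO32 (edgeR FDR 0.00067). It was 0.73 ± 0.22 for KLF4 (edgeR FDR 0.024), a call lost with DESeq2, with glmTreat, and without shMCM7 Dox replicate 1, shMCM7 noDox replicate 2 or 3, parental Dox replicate 3 or parental noDox replicate 1. Without shMCM7 noDox replicate 1 it was 0.90 for KLF4 and 1.04 for IRS2. The interaction was -0.72 ± 0.073 for CDKN1A (edgeR FDR 2.2e-05) and -0.69 ± 0.090 for SKP2 (edgeR FDR 0.00013). Groups of 3 libraries were too small for a test of single outlying libraries.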

How the results depend on the processing

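SESN3 stayed called down between uninduced shMCM7 and parental A375 cells under every alternative tried except glmTreat, a stricter test against 1.5-fold itself, which left 0 members called there. Between cells with Dox, SESN3 stayed called under every alternative tried, and glmTreat left it as the 1 member called. glmTreat took the calls over all genes to 499 for shMCM7 Dox against noDox, 86 between uninduced cells, 1274 between cells with Dox and 273 for the interaction, as its threshold implies. With each library left out in turn, members called down ran from 0 to 1 for shMCM7 Dox against noDox, where the 1 was PDK4 without shMCM7 noDox replicate 1, and from 1 to 3 between cells with Dox. The count of all genes called between uninduced cells ran from 173 to 321, lowest without parental noDox replicate 2, and that for parental Dox against noDox ran from 0 to 1. In the A549 libraries labelled parental it ran from 0 to 300, with 300 without parental noDox replicate 3, and DESeq2 called 9 there and 3 in parental A375 cells. The cause of these moves was not tested.

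In fits blocked on the replicate number, the pairing gave 484 calls between uninduced cells and 12 in parental A375 cells, and no call of a member changed. In shMCM7 A375 cells the blocked log2 fold change was -0.41 for PDK4 (edgeR FDR 0.0037), again under the minimum fold. Those of TXNIP, -0.51 (edgeR FDR 0.012), and SESN3, -0.24 (edgeR FDR 0.047), were under that minimum too. The block turned values near 0 of uncalled genes: BCL6 to -0.0030 and PDK4 to -0.0044 in the A549 libraries labelled shMCM7, and BCL6 to -0.0026 in the interaction. A minimum of 10 counts in every library turned TXNIP to -0.00049 in the A549 libraries labelled shMCM7. Of 864 alternative values of the members, 54 changed sign, 50 of them on leaving out a library, 3 lost a call and 4 gained one. None of the sign changes touched a called value.

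The log2 fold changes of uncalled members that changed sign when a library was left out had these ranges. In A375 shMCM7 cells, Dox against noDox, the range was -0.087 to 0.028 for FOXO1 and -0.055 to 0.058 for FOXO3. In parental A375 cells, Dox against noDox, the range was -0.036 to 0.032 for FOXO3, -0.089 to 0.022 for FOXO4, -0.095 to 0.0067 for SESN3, -0.37 to 0.20 for TXNIP and -0.075 to 0.030 for KLF6. Between uninduced shMCM7 and uninduced parental A375 cells, the range was -0.084 to 0.019 for FOXO4, -0.10 to 0.49 for TXNIP, -0.13 to 0.068 for BCL6 and -0.075 to 0.054 for KLF6. Between shMCM7 and parental A375 cells with Dox, the range was -0.45 to 0.037 for TXNIP. In A549 libraries labelled shMCM7, the range was -0.17 to 0.29 for FOXO3, -0.29 to 0.031 for SESN3, -0.0032 to 0.18 for CCNG2, -0.34 to 0.24 for TXNIP, -0.14 to 0.18 for BCL6, -0.034 to 0.13 for KLF6 and -0.27 to 0.24 for PDK4. In A549 libraries labelled parental, the range was -0.22 to 0.048 for FOXO1, -0.35 to 0.023 for SESN3, -0.29 to 0.080 for CCNG2 and -0.048 to 0.13 for KLF6. For the A375 interaction, the range was -0.055 to 0.047 for FOXO3 and -0.13 to 0.074 for BCL6.

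Depth limits A549, where members held as few as 14 counts a library, and 3 libraries a group limit all tests.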
